A study of Mus musculus with 28 samples.

Results

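Periostin (Postn), tenascin C (Tnc), thrombospondins 1 and 2 (Thbs1, Thbs2), the secreted acidic protein rich in cysteine (Sparc), the protein induced by transforming growth factor beta (Tgfbi), matrix Gla protein (Mgp), spondin 1 (Spon1), fibronectin (Fn1), and syndecan 1 (Sdc1) were followed in developing mouse molars. The 10 genes were chosen by their symbols, which were matched to Ensembl identifiers of the GRCm38 mouse genome, and each of the 10 was found among the 52636 genes counted. The teeth are first molar tooth germs of C57BL/6JOlaHsd embryos, wild type by the study's methods and with no treatment named, at the bud stage (E13, labelled E13.5), the cap stage (E14, labelled E14.5), and the bell stage (E16, labelled E16.5). Each library is a single tooth germ, which holds both epithelium and mesenchyme and was dissected with little of the tissue around it. There are 7 teeth at each stage, from 7 embryos at E13, 6 at E14, and 5 at E16, and the teeth were treated as replicates although 3 embryos gave both their left and their right tooth. A separate table covers 6 teeth of E15, labelled as wild type lower first molars, besides those of E13 and E16, and is described after them.

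Matricellular proteins are secreted into the extracellular matrix, where they bind cell surface receptors, growth factors, and structural fibers and change how cells adhere, without being the main load-bearing fibers themselves. In the tooth germ, tenascin and syndecan 1 are classically known from the mesenchyme that condenses around the epithelial bud, and fibronectin from the matrix at the border of epithelium and mesenchyme. Periostin is best known from the periodontal ligament and the periosteum, and Sparc, also called osteonectin, from cells that lay down collagen and mineralized matrix.

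The sequences around the start sites of 3 genes are printed because Thbs2 and Sparc were the genes whose E14 teeth all lay above the E13 teeth, whereas the level of Tnc moved downwards over the same stages. Each runs 5′ to 3′ in the direction of the gene, from 250 bases before the RefSeq transcript start to 50 after it (RefSeq, GRCm38.p6; all 3 genes are on the minus strand). Capitals mark matches on either strand to the letters TATAAA or to the E box CANNTG, the form bound by Twist and other basic helix-loop-helix factors.
Thbs2, chr17:14694213-14694512: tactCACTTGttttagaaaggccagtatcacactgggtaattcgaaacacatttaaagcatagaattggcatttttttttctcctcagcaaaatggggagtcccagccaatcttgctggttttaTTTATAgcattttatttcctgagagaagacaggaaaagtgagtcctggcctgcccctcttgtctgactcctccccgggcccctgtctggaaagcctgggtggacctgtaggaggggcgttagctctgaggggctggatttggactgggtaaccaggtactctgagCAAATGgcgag
Sparc, chr11:55420031-55420330: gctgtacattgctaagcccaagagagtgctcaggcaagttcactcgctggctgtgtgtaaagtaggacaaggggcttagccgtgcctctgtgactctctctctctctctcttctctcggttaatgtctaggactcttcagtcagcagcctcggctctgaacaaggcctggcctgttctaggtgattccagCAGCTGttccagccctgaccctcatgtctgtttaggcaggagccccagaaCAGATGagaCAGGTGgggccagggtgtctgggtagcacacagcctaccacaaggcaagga
Tnc, chr4:64046966-64047265: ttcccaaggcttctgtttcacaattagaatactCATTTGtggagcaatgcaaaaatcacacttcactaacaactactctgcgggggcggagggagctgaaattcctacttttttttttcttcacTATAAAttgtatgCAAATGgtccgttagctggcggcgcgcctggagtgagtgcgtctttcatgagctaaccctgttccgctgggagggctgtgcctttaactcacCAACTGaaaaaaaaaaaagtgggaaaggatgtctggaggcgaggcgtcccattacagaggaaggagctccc
The Tnc window is the first of its 2 entries in the table, and the RefSeq start of Sparc lies inside the gene as the GENCODE annotation draws it. The Thbs2 window holds 1 match to TATAAA and 2 to the E box, the Sparc window 0 and 3, and the Tnc window 1 and 3. In all 32851 windows of the same length in the table, 13.6% hold TATAAA and 72.3% an E box. The AP-1 letters TGACTCA, held by 5.20% of the windows, are in none of the 3. Promoter sequences were also given for Postn, Tgfbi, and Sdc1, and none for Thbs1, Mgp, Spon1, and Fn1. These matches are a description of the letters only.

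The libraries held between 17814073 and 27115729 counted reads, of which the 10 genes together took between 0.313% and 0.452%. An E16 library, the left tooth of embryo 3, stood apart from the rest. It had the fewest reads of the 21, and 70.0% of the 19101 genes tested lay outside the range of the other 6 E16 teeth, against 14.6% to 39.1% for the other 20 teeth within their own stages. Of the 10 genes, 9 lay outside the range of the other E16 teeth in this library, and between 0 and 8 in the other 20 teeth within their own stages, with 8 in the right tooth of embryo 5 at E14, 7 in that of embryo 5 at E13, and 6 in that of embryo 7 at E16. Periostin was above that range, at 40441 normalized counts (counts divided by DESeq2 size factors) against 21496 to 28441, and 8 genes were below it. Sparc was at 0.191 of the median of the other 6 teeth, Fn1 at 0.255, and Tgfbi at 0.283. On the log2 scale these ratios are -2.39, -1.97, and -1.82, where 90% of all genes tested fell between -1.53 and 1.07. The counts of the 10 genes that passed a test with E16 are therefore given with and without this tooth.

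**Figure D1:**
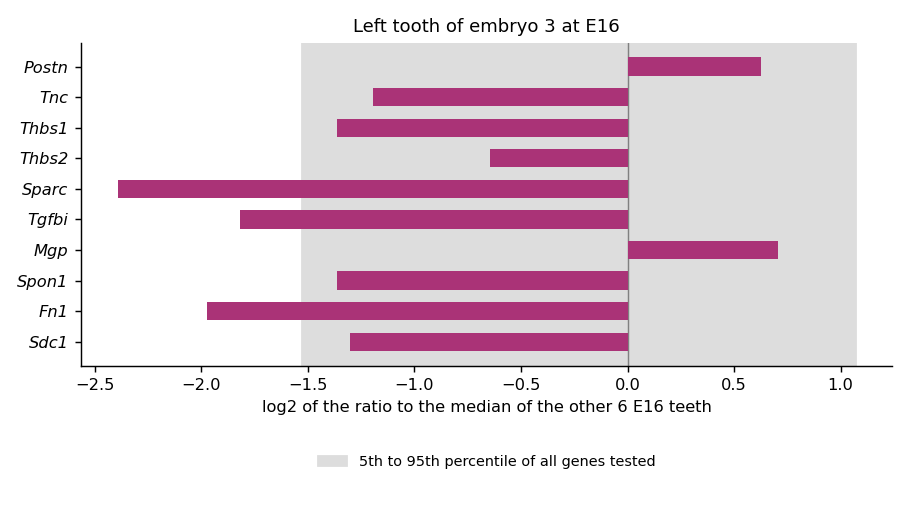
Level of each of the 10 genes in the left tooth of embryo 3 at E16, as the log2 of its ratio to the median of the other 6 E16 teeth; the grey band holds the middle 90% of the 19101 genes tested. Sparc, Fn1, and Tgfbi lie beyond the low end of the band, and Postn and Mgp are the bars to the right of 0.

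The epithelial and mesenchymal markers of the tooth germ were present, with all 9 of each above 0 in the median tooth of every stage. The summed normalized counts of the epithelial markers ranged from 16776 to 24850 at E13, 28618 to 38219 at E14, and 66733 to 77212 in the 6 other E16 teeth, and 9 of 9 markers rose at each step. The mesenchymal markers summed to 88347 to 96742, 80171 to 89379, and 53343 to 61629 at the same stages, with 3 of 9 lower from E13 to E14 and 5 of 9 lower from E14 to E16. Prrx1, 1 of these 9, had a median of 33904 at E13 and 11486 in the 6 other E16 teeth, where the median sums were 91920 and 54896. Osteoblast markers summed to 10193 to 20020, 11727 to 32255, and 20005 to 23895, with 2 of 7 tested markers higher from E13 to E14. Cartilage markers summed to 5076 to 6244, 2631 to 5804, and 3989 to 5210.2, with Matn1 at 0 in the median tooth of each stage, and macrophage markers to 1028 to 1612, 1719 to 2306, and 2679.9 to 3637, with 4 of 7 higher from E13 to E14. Skeletal muscle markers reached 6848 in the left tooth of embryo 7 at E13, against a median of 305 at that stage. The counts of markers higher or lower are from the test described below with all 21 teeth. In it 19.7% of all genes passed from E13 to E14 and 28.1% from E14 to E16. Without the left tooth of embryo 3, 2 mesenchymal markers were higher and 4 lower from E13 to E14, and 6 lower from E14 to E16. In that fit 6 of 7 macrophage markers were higher from E13 to E14, and 30.4% and 34.3% of all genes passed. The odd E16 tooth had a mesenchymal sum of 31648, an epithelial sum of 48026, an osteoblast sum of 12446, and a cartilage sum of 1376, all below the other 6 teeth. The part of these shifts in the results below was not tested, and in a whole tooth germ fewer cells of a type and less RNA per cell cannot be told apart.

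Levels of different genes were set side by side per kilobase of exon, counting every annotated exon of a gene, so the order depends on these lengths. By this measure periostin was the most abundant of the 10 at E13. Its median was 3509.7 normalized counts per kilobase, ranked 79th among 21896 protein-coding genes, and its lowest tooth was above the highest tooth of Fn1. Fn1, Sparc, and Tnc followed at 2323, 1901, and 1363 per kilobase, with ranges over teeth that overlapped between neighbors in this order. Sdc1 and Thbs1 formed the next level, at 776 and 696 with overlapping ranges. Tgfbi (430.3) and Thbs2 (301) also overlapped, and Spon1 (108) and Mgp (39.7) were each separate from the gene above. By E16 the order by this measure had changed. Sparc was at the top, ranked 66th, with a median of 4769 per kilobase over the 6 other teeth. It did not overlap with Postn at 3009. The lengths used were 8702 bases for Postn and 3788 for Sparc. Before division by length, Postn was the higher in these teeth, at 21496 to 28441 normalized counts against 14594 to 18957 for Sparc. The place of Sparc above Postn therefore rests on the lengths used. Over the same 6 teeth Tnc, Thbs2, and Thbs1 stood at 768, 724, and 713 per kilobase, and their ranges overlapped. With the left tooth of embryo 3 included, every neighboring pair of the order overlapped at E16, and Sparc remained at the top by its median (4714).

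**Figure D2:**
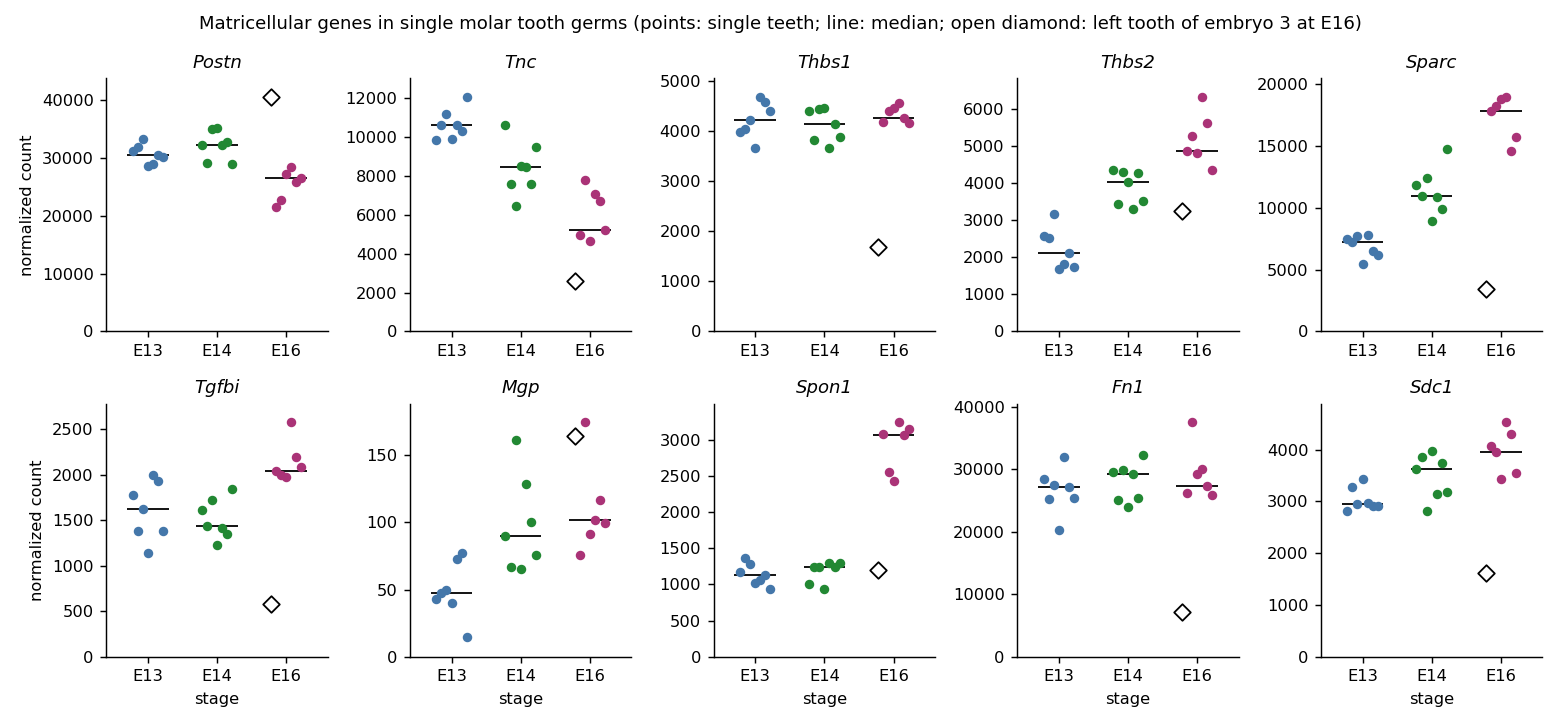
Normalized counts (y axis, each starting at 0) of the 10 genes in each tooth at E13, E14, and E16 (x axis), with the median of the 7 teeth as a line and an open diamond for the left tooth of embryo 3 at E16. Sparc and Thbs2 climb and Tnc descends over the stages, and Spon1 climbs from E14 to E16. The diamond lies below the other E16 teeth for 8 genes and above them for Postn.

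To find which of the genes changed as the bud became a cap, E13 and E14 were compared with the quasi-likelihood test of edgeR across all 19101 genes that passed the filter on low counts, a filter that all 10 genes passed. A gene is said to have risen or fallen where its p value, adjusted over all genes tested with the Benjamini-Hochberg method, was below 0.05. Mgp, Thbs2, and Sparc rose, 3 of the 10, where 19.7% of all genes tested passed the test. None of the 10 fell by edgeR, where 1 (Tnc) was lower at an unadjusted p below 0.05, and DESeq2 gave the same counts of 0 and 1. The median log2 fold change of the 10 genes was 0.07, and that of all genes tested -0.01. With the left tooth of embryo 3 at E16 left out, the same 3 genes rose and Tnc fell, 4 of the 10 against 30.4% of all genes. The E14 teeth lay wholly above the E13 teeth for Thbs2 and Sparc, 2 of the 10, where 9.92% of all genes tested did not overlap between these stages.

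The step from cap to bell was compared in the same fit. Spon1 rose and Tnc fell, 2 of the 10, where 28.1% of all genes tested passed the test. This count changed without the left tooth of embryo 3. In that fit Spon1, Sparc, Tgfbi, Thbs2, and Sdc1 rose and Tnc and Postn fell, 7 of the 10 against 34.3% of all genes. The median log2 fold change of the 10 genes was 0.16 with the tooth and 0.19 without it. No gene of the 10 was without overlap between E14 and E16 when all 7 teeth were counted, where 10.8% of all genes were. Without the tooth, Thbs2, Tgfbi, and Spon1 lay wholly above and Postn wholly below the E14 teeth, 4 of the 10 against 15.3% of all genes.

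From bud to bell, Mgp, Spon1, Sparc, and Thbs2 rose and Tnc fell, 5 of the 10, where 41.3% of all genes tested passed the test. Without the left tooth of embryo 3 these 5 kept their calls and directions, and Sdc1 and Tgfbi also rose and Postn also fell, 8 of the 10 against 48.7% of all genes. Thbs2 lay wholly above and Tnc wholly below the E13 teeth at E16, where 18.7% of all genes did not overlap, and without the tooth this held for Thbs2, Sparc, Spon1, and Sdc1 above and Postn and Tnc below, 6 of the 10 against 27.3% of all genes. Fn1 and Thbs1 did not pass the test in any of the 3 comparisons, with the tooth or without it. Whether the change from E14 to E16 differed from that from E13 to E14 was tested directly as the difference between the log2 fold changes of the 2 steps, which share the E14 teeth and differ in length. It differed for Spon1, 1 of the 10, where 13.7% of all genes tested did. Without the left tooth of embryo 3 it differed also for Tgfbi, upwards, and for Postn, downwards, 3 of the 10 against 20.8% of all genes.

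**Figure D3:**
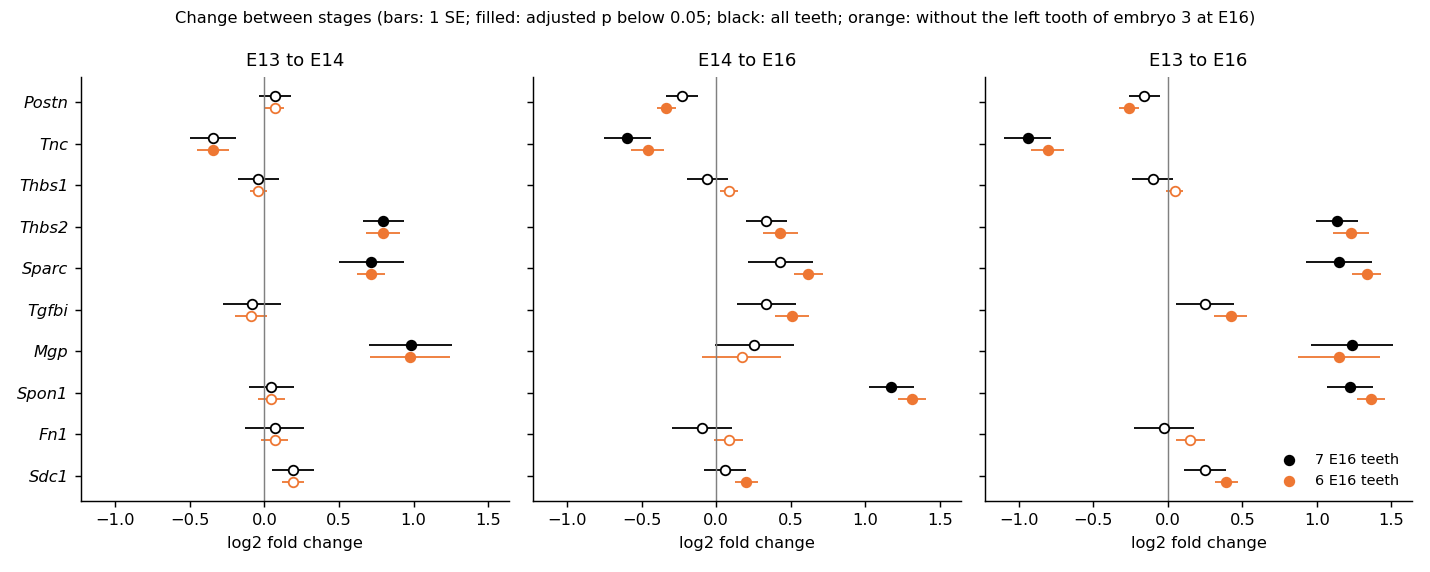
Log2 fold change of each of the 10 genes (x axis) between the stages named above each panel, with bars of 1 SE; filled points have an adjusted p below 0.05, black points use all 21 teeth and orange points leave out the left tooth of embryo 3 at E16. The black and orange points lie close together for E13 to E14, and more orange than black points are filled in the panels with E16.

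Periostin (ENSMUSG00000027750, chr3:54361109-54391037, plus strand of GRCm38, the build of all positions given) is a secreted fasciclin-domain protein that binds integrins and promotes the cross-linking of collagen. Over the teeth, normalized counts ranged from 28541 to 33158 (median 30542) at E13 and from 28892 to 35143 (median 32236) at E14. At E16 they ranged from 21496 to 28441 (median 26187) in 6 teeth, and the left tooth of embryo 3 had 40441. The E13 and E14 teeth overlapped, and the 6 E16 teeth were below every tooth of both earlier stages whereas the remaining tooth was above them all. The log2 fold change from E13 to E14 was 0.07 ± 0.11 (SE, adjusted p = 0.687) by edgeR. From E14 to E16 it was -0.23 ± 0.11 (SE, adjusted p = 0.111) with all teeth and -0.33 ± 0.07 (SE, adjusted p = 0.000323) without the left tooth of embryo 3, so that the call of lower periostin at E16 rests on leaving out this tooth. The difference between the steps was -0.30 ± 0.18 (SE, adjusted p = 0.3) with the tooth and -0.40 ± 0.11 (SE, adjusted p = 0.0108) without it.

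Tgfbi (ENSMUSG00000035493, chr13:56609523-56639562, plus strand), the closest relative of periostin and like it made of fasciclin domains that bind integrins and collagen, had a lower median per kilobase than Postn at each stage. Normalized counts of Tgfbi ranged from 1137 to 1998 (median 1623) at E13, from 1225 to 1843 (median 1437) at E14, and from 1972 to 2572 (median 2061) in 6 teeth at E16, with 584 in the left tooth of embryo 3. The 6 E16 teeth were above every E14 tooth, and the remaining tooth was below every other tooth of the 3 stages. From E13 to E14 the log2 fold change was -0.09 ± 0.20 (SE, adjusted p = 0.802). From E14 to E16 it was 0.34 ± 0.20 (SE, adjusted p = 0.209) with the left tooth of embryo 3 and 0.51 ± 0.11 (SE, adjusted p = 0.000844) without it (edgeR). The difference between the steps was 0.42 ± 0.34 (SE, adjusted p = 0.4545) with this tooth and 0.60 ± 0.19 (SE, adjusted p = 0.0278) without it (edgeR).

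Because Postn and Tgfbi are relatives, their ratio within each tooth was compared, a measure that does not depend on the scaling between libraries. The ratio of Postn to Tgfbi counts ranged from 14.48 to 25.1 (median 20.4) at E13, from 15.7 to 28.7 (median 20.3) at E14, and from 10.5 to 13.8 (median 11.6) in 6 teeth at E16, and was 69.2 in the left tooth of embryo 3. The 6 teeth were below all teeth of E13 and E14, and the remaining tooth was above them. With all 7 E16 teeth, the mean log2 ratio differed from E14 to E16 by -0.49 (two-sided exact permutation test, adjusted p = 0.341) and from E13 to E16 by -0.35 (exact permutation test, adjusted p = 0.434), where p values were adjusted over 6 ratio comparisons. Over the 6 other teeth the same differences were -0.85 and -0.71 (two-sided exact permutation tests, adjusted p = 0.0014 for both). The tooth left out is the one with the highest ratio. Without it the stages do not overlap, so each of these p values is, before adjustment, the smallest that 7 against 6 teeth can give. Teeth were taken as independent in these tests, although some embryos gave both.

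Tenascin C (ENSMUSG00000028364, chr4:63959785-64047015, minus strand) is a large, many-armed glycoprotein that modulates cell adhesion to fibronectin. Normalized counts of Tnc ranged from 9831 to 12041 (median 10591) at E13, from 6466 to 10626 (median 8461) at E14, and from 4639.7 to 7800.4 (median 5966) in 6 teeth at E16, with 2605 in the left tooth of embryo 3. Every E16 tooth was below every E13 tooth, and the E14 teeth overlapped both. Tnc fell by 0.94 on the log2 scale from E13 to E16, to 0.521 of its E13 level (SE 0.158, edgeR, adjusted p = 3.24e-05), and without the left tooth of embryo 3 the log2 fold change was -0.81 ± 0.11 (SE, adjusted p = 1.55e-06). From E14 to E16 it was -0.60 ± 0.16 (SE, adjusted p = 0.00551) with this tooth and -0.46 ± 0.11 (SE, adjusted p = 0.00202) without it. The change from E13 to E14 was -0.34 ± 0.16 (SE, adjusted p = 0.126) and passed the test without the left tooth of embryo 3, with -0.35 ± 0.11 (SE, adjusted p = 0.0148) by edgeR. The E box and TATAAA matches of its promoter are those printed above.

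Thrombospondin 2 (ENSMUSG00000023885, chr17:14665500-14694235, minus strand) and thrombospondin 1 (ENSMUSG00000040152, chr2:118111876-118127133, plus strand) are the 2 trimeric thrombospondins, which restrain blood vessel growth through CD36 and CD47 and differ in that Thbs1 activates latent transforming growth factor beta. For Thbs2 the normalized counts ranged from 1689 to 3184 (median 2109) at E13, from 3308 to 4347 (median 4022) at E14, and from 4355 to 6324 (median 5073) in 6 teeth at E16, with 3242 in the left tooth of embryo 3. All E14 and E16 teeth were above all E13 teeth, and the 6 E16 teeth were above all E14 teeth. Thbs2 rose by a log2 fold change of 0.80 ± 0.14 (SE, adjusted p = 0.000169) from E13 to E14 (1.74-fold) and 1.13 ± 0.14 (SE, adjusted p = 3.71e-07) from E13 to E16 (2.19-fold) by edgeR, the latter 1.23 ± 0.12 (SE, adjusted p = 6.35e-09) without the left tooth of embryo 3. The change from E14 to E16 was 0.34 ± 0.14 (SE, adjusted p = 0.0692) with the left tooth of embryo 3 and 0.43 ± 0.12 (SE, adjusted p = 0.0066) without it. It also passed the test when the left tooth of embryo 3 at E13 was left out (0.35, adjusted p = 0.0373, edgeR).

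Thbs1 did not pass the test at either step. The normalized counts of Thbs1 ranged from 3668 to 4676 (median 4226) at E13, from 3667 to 4455 (median 4145) at E14, and from 4168 to 4552 (median 4333) in 6 teeth at E16, and were 1686 in the left tooth of embryo 3. The teeth of the 3 stages overlapped apart from this tooth, which was below all others. The log2 fold changes were -0.04 ± 0.14 (SE, adjusted p = 0.875) from E13 to E14 and -0.06 ± 0.14 (SE, adjusted p = 0.785) from E14 to E16, and the latter was 0.09 ± 0.06 (SE, adjusted p = 0.27) without the tooth.

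The ratio of Thbs2 to Thbs1 counts was tested within each tooth. It ranged from 0.389 to 0.753 (median 0.461) at E13, from 0.902 to 1.03 (median 0.910) at E14, and from 1.04 to 1.39 (median 1.18) in 6 teeth at E16, and was 1.92 in the left tooth of embryo 3. The stages did not overlap at either step, with this tooth or without it. The mean log2 ratio rose by 0.86 from E13 to E14, by 0.44 from E14 to E16, and by 1.30 from E13 to E16 (two-sided exact permutation tests, p = 0.000583 and adjusted p = 0.00117 for each, where this p is the smallest that 7 against 7 teeth can give). These tests take teeth as independent, although some embryos gave both. With the teeth of an embryo averaged, the rises were 0.86, 0.50, and 1.36 (exact permutation tests, adjusted p = 0.00699, 0.00866, and 0.00758).

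**Figure D4:**
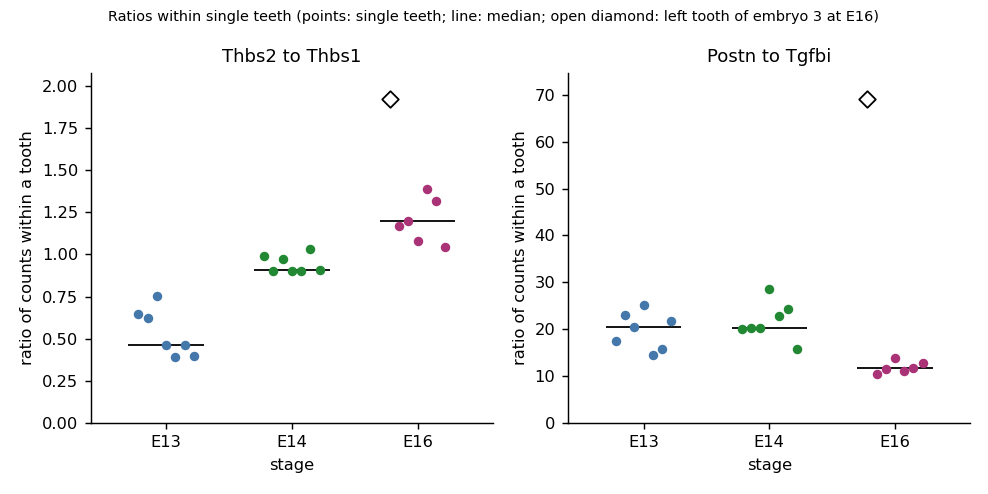
Ratio of Thbs2 to Thbs1 counts (left) and of Postn to Tgfbi counts (right) within each tooth (y axes from 0) at E13, E14, and E16, with the median as a line and an open diamond for the left tooth of embryo 3 at E16. The Thbs2 to Thbs1 ratio steps up from a median of 0.461 to 0.910 and 1.20 with no overlap between stages, and the Postn to Tgfbi ratio is lower at E16 in 6 teeth and at 69.2 in the diamond.

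Spondin 1 (ENSMUSG00000038156, chr7:113765998-114043370, plus strand), which carries thrombospondin type 1 repeats and is best known for guiding axons at the floor plate, changed in the later step. Normalized counts of Spon1 ranged from 940 to 1369 (median 1126) at E13, from 931 to 1302 (median 1236) at E14, and from 2423 to 3237 (median 3072) in 6 teeth at E16. The left tooth of embryo 3 had 1193, within the range of the earlier stages, whereas the other 6 E16 teeth were above every tooth of E13 and E14. The log2 fold change was 0.05 ± 0.15 (SE, adjusted p = 0.866) from E13 to E14 and 1.18 ± 0.15 (SE, adjusted p = 1.57e-06) from E14 to E16 (2.26-fold). Leaving out this tooth, the later step was 1.32 ± 0.09 (SE, adjusted p = 4.21e-11). The steps differed by 1.13 ± 0.26 (SE, adjusted p = 0.00492) with this tooth and 1.27 ± 0.16 (SE, adjusted p = 2.53e-06) without it (edgeR), so that Spon1 passed the test of unequal steps in both.

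Sparc (ENSMUSG00000018593, chr11:55394500-55423183, minus strand) binds collagen and takes part in the assembly of its fibers. Its normalized counts ranged from 5467 to 7825 (median 7201) at E13, from 8963 to 14756 (median 10943) at E14, and from 14594 to 18957 (median 18066) in 6 teeth at E16, and the left tooth of embryo 3 had 3446. All E14 teeth were above all E13 teeth, and the left tooth of embryo 3 was below every tooth of the 3 stages. From E13 to E14, Sparc rose by 0.72 ± 0.22 (SE, adjusted p = 0.0223) on the log2 scale, or 1.64-fold, and from E13 to E16 by 1.15 ± 0.22 (SE, adjusted p = 0.000172). Leaving out that tooth, the rise from E13 to E16 was 1.33 ± 0.10 (SE, adjusted p = 3.14e-11), or 2.52-fold. The later step was 0.43 ± 0.22 (SE, adjusted p = 0.15) with this tooth and 0.62 ± 0.10 (SE, adjusted p = 1.95e-05) without it. The call from E13 to E14 was lost, with the odd tooth kept in the fit, when the right tooth of embryo 5 at E13 (0.67, adjusted p = 0.0503 by edgeR) or the left tooth of embryo 8 at E14 (0.64, adjusted p = 0.0541) was left out. The summed osteoblast markers were also highest at E14 in the left tooth of embryo 8, at 32255, and the part of this in the result was not tested.

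Matrix Gla protein (ENSMUSG00000030218, chr6:136872435-136875823, minus strand), an inhibitor of calcification in cartilage and vessel walls, was the least abundant of the 10. It had from 12 to 79 reads per tooth at E13, from 65 to 178 at E14, and from 82 to 193 at E16. At the tooth with 12 reads the counting error alone is 28.9%. In normalized counts it ranged from 14.8 to 77.5 (median 47.1) at E13, from 65.2 to 162 (median 89.9) at E14, and from 76.0 to 174 (median 102) at E16, and the odd E16 tooth, with 164, was within the range of the others. The E13 and E14 teeth overlapped, as did those of E14 and E16. Mgp rose by a log2 fold change of 0.98 ± 0.28 (SE, adjusted p = 0.0134) from E13 to E14, or 1.97-fold (edgeR), and the change from E14 to E16 was 0.26 ± 0.27 (SE, adjusted p = 0.512), and 0.17 ± 0.27 (SE, adjusted p = 0.671) without the odd tooth. From E13 to E16 it was 1.24 ± 0.28 (SE, adjusted p = 0.000805) with all teeth and 1.15 ± 0.28 (SE, adjusted p = 0.00126) without the left tooth of embryo 3.

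Fibronectin (ENSMUSG00000026193, chr1:71585520-71653200, minus strand), the adhesive glycoprotein that cells assemble into fibrils through integrins, was abundant and did not pass the test in any comparison. Its normalized counts ranged from 20217 to 31903 (median 27149.6) at E13, from 23907 to 32290.5 (median 29271) at E14, and from 25902 to 37497 (median 28295) in 6 teeth at E16. The left tooth of embryo 3 had 7211, below every other tooth, and the remaining teeth of the 3 stages overlapped. The log2 fold changes were 0.07 ± 0.20 (SE, adjusted p = 0.85) from E13 to E14 and -0.10 ± 0.20 (SE, adjusted p = 0.76) from E14 to E16, and the latter was 0.08 ± 0.10 (SE, adjusted p = 0.55) without the tooth. In the annotation, Fn1, Tnc, and Thbs1 each share bases with a noncoding gene on the other strand (Apol7d, 8030451A03Rik, and Gm29233), and the strand setting of the counting is not given in the sources used here, so that reads of each pair may not be told apart.

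Syndecan 1 (ENSMUSG00000020592, chr12:8771323-8793715, plus strand), a heparan sulfate proteoglycan of the cell surface, is the receptor-like member of the group and binds fibronectin and tenascin. Its normalized counts ranged from 2821 to 3425 (median 2956) at E13, from 2811 to 3969 (median 3636) at E14, and from 3438 to 4526 (median 4009) in 6 teeth at E16, with 1626 in the left tooth of embryo 3. The 6 E16 teeth were above all E13 teeth and overlapped those of E14. The log2 fold change was 0.19 ± 0.14 (SE, adjusted p = 0.363) from E13 to E14. From E13 to E16 it was 0.25 ± 0.14 (SE, adjusted p = 0.159) with the left tooth of embryo 3 and 0.39 ± 0.08 (SE, adjusted p = 0.00013) without it, and from E14 to E16 0.06 ± 0.14 (SE, adjusted p = 0.789) and 0.20 ± 0.08 (SE, adjusted p = 0.0409) (edgeR). The summed epithelial markers given above also differed between the stages, and their part in this change was not tested.

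In the 3 embryos that gave both teeth, the log2 ratio of left to right, given as a description, ranged from -0.37 for Thbs2 in embryo 6 at E14 to 0.94 for Mgp in embryo 6 at E16. Tnc, Mgp, Fn1, and Tgfbi were higher and Postn was lower in the left tooth of all 3 embryos, with log2 ratios for Tnc of 0.16 in embryo 6 at E14, 0.75 in embryo 6 at E16, and 0.37 in embryo 8 at E16. In the same order the log2 ratios were 0.07, 0.02, and 0.08 for Tgfbi and -0.02, -0.25, and -0.04 for Postn. How many of all genes keep 1 direction in these 3 embryos was not counted, so no difference between sides is read from this. Left and right teeth numbered 4 and 3 at E13, 2 and 5 at E14, and 4 and 3 at E16. With side as a factor, 3 of the 10 genes were called from E13 to E14 and 2 from E14 to E16, the same numbers as without it.

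The E15 teeth were compared with those of E13 and E16 in the salmon table, whose estimated counts cover 13447 genes after the filter, all 10 genes included. The E15 samples carry a processing description of their own. The paper describes no E15 teeth, so its methods do not give their strain or preparation. In every comparison with E15, stage therefore cannot be told apart from a difference between these sets of samples. From E13 to E15, Mgp, Thbs2, Sparc, and Spon1 rose and Tnc fell, 5 of the 10, where 26.8% of all genes tested passed the test. From E15 to E16 none of the 10 passed the test of edgeR, where 6.33% of all genes did. At an unadjusted p below 0.05, 2 of the 10 were higher (Spon1 and Tgfbi), and DESeq2 found 1 (Spon1) higher after adjustment. Without the left tooth of embryo 3 at E16, Sparc, Spon1, and Tgfbi rose from E15 to E16 and Postn fell, 4 of the 10 against 10.3% of all genes, and the calls from E13 to E15 were the same 5, where the share of all genes was 35.0%. From E13 to E16 this table gave the 5 genes found with the HTSeq counts, where 36.4% of all genes passed, and 8 genes without the left tooth of embryo 3, where 42.3% did.

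Spon1 was intermediate at E15. Its normalized estimated counts ranged from 869.8 to 1316 (median 1086) at E13, from 1741 to 2074 (median 1855) at E15, and from 2295 to 3072 (median 2944) in 6 teeth at E16, with no overlap between these groups. The left tooth of embryo 3 at E16 was at 1286, below the E15 teeth. The log2 fold change was 0.83 ± 0.14 (SE, adjusted p = 0.000124) from E13 to E15, and from E15 to E16 it was 0.42 ± 0.14 (SE, adjusted p = 0.0953) with this tooth and 0.53 ± 0.09 (SE, adjusted p = 0.000578) without it (edgeR).

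Tnc and Thbs2 at E15 overlapped with E16. For Tnc the estimated counts ranged from 4582 to 6291 (median 5844) at E15, from 9323 to 11449.9 (median 10036) at E13, and from 4338 to 7272 (median 5653) in the 6 E16 teeth, and the log2 fold change from E13 to E15 was -0.81 ± 0.15 (SE, adjusted p = 0.000361). For Thbs2 they ranged from 3736 to 6389.9 (median 4561) at E15 and from 1624 to 3114 (median 2059) at E13, a log2 fold change of 1.18 ± 0.16 (SE, adjusted p = 5.93e-06). All E15 teeth were below the E13 teeth for Tnc and above them for Thbs2. Mgp was at its highest median at E15, ranging from 90.3 to 242 (median 129) estimated counts, and its log2 fold change was 1.67 ± 0.30 (SE, adjusted p = 0.000215) from E13 to E15 and -0.38 ± 0.29 (SE, adjusted p = 0.583) from E15 to E16, the latter -0.53 ± 0.29 (SE, adjusted p = 0.288) without the odd tooth.

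Sparc, Postn, and Tgfbi passed edgeR's test between E15 and E16 where the left tooth of embryo 3 was left out, and did not with it. For Sparc the estimated counts at E15 ranged from 8538 to 14118 (median 12229), and from 13664 to 17719 (median 16729) in 6 teeth at E16, and the log2 fold change was 0.23 ± 0.22 (SE, adjusted p = 0.687) with the tooth and 0.40 ± 0.11 (SE, adjusted p = 0.0218) without it. Periostin ranged from 23128 to 36072 (median 31164) at E15 and from 20589.7 to 27161 (median 25122) in those 6 teeth, with a log2 fold change of -0.20 ± 0.15 (SE, adjusted p = 0.553) with the tooth and -0.37 ± 0.09 (SE, adjusted p = 0.0117) without it. Tgfbi ranged from 1099 to 1529 (median 1278) at E15 and from 1853 to 2414 (median 1969.5) in the 6 E16 teeth, with no overlap, and its log2 fold change was 0.46 ± 0.20 (SE, adjusted p = 0.234) with the tooth and 0.61 ± 0.12 (SE, adjusted p = 0.00175) without it (edgeR). Postn and Sparc overlapped between these groups. E15 was not compared with E14 because the stages are in different tables.

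**Figure D5:**
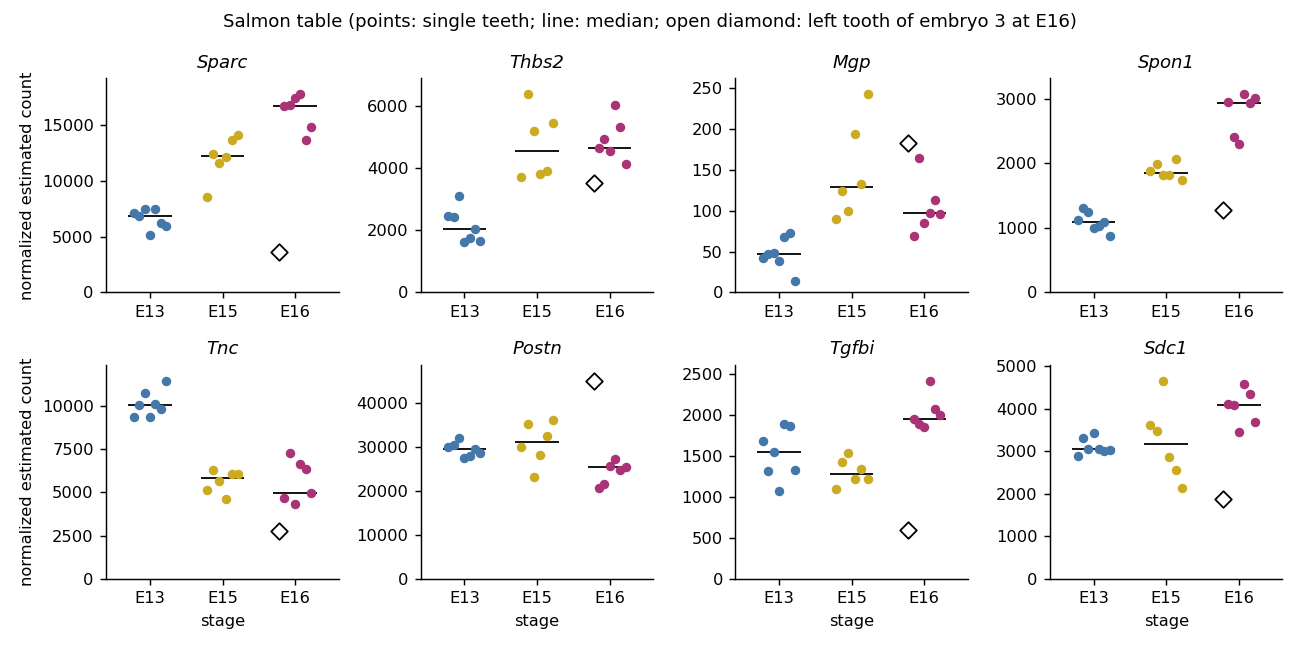
Normalized estimated counts (y axes from 0) of 8 of the genes in each tooth of E13, E15, and E16 of the salmon table, with the median as a line and an open diamond for the left tooth of embryo 3 at E16. Spon1 at E15 lies between E13 and the 6 other E16 teeth, Tnc at E15 is below E13, and Tgfbi at E15 is below the 6 E16 teeth.

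A list of 31 further matricellular and related genes also holds the other syndecans, fibulins, and some other matrix proteins. Of the 31, 26 could be tested, and Ccn5, Ccn6, Comp, Tnr, and Vtn did not pass the filter. From E13 to E14 9 rose and 3 fell, and from E14 to E16 8 rose and 5 fell, where 19.7% and 28.1% of all genes passed. When the left tooth of embryo 3 was left out, 14 rose and 3 fell at the first step and 11 rose and 5 fell at the second, of 27 tested, against 30.4% and 34.3% of all genes. Spp1 (osteopontin), an acidic phosphoprotein of mineralized tissue, rose from a median of 8.57 (0.942 to 12.3) normalized counts at E13 to 202 (128 to 252) at E14, a log2 fold change of 4.68 ± 0.47 (SE, adjusted p = 8.78e-08). Thbs4, a pentameric thrombospondin of tendon and muscle, rose at both steps, from 91.2 (30.3 to 332) to 452 (386 to 540.2) and 3849.8 (788 to 4215), by 1.94 ± 0.37 (SE, adjusted p = 0.000538) and then 2.83 ± 0.36 (SE, adjusted p = 1.46e-06), the latter 3.02 (adjusted p = 6.52e-09) without the left tooth of embryo 3. The part of the muscle markers given above was not tested.

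Smoc1, a relative of Sparc that antagonizes bone morphogenetic proteins, fell and then rose, from a median of 242 (202 to 339.9) at E13 to 141 (82.8 to 223) at E14 and 944 (356 to 1116) at E16. Its log2 fold changes were -0.81 ± 0.21 (SE, adjusted p = 0.00723) and 2.64 ± 0.21 (SE, adjusted p = 9.04e-10) by edgeR. Tnn (tenascin N), a relative of Tnc, fell from 1453 (1230 to 1699) to 790.1 (542 to 889) between E13 and E14, with a log2 fold change of -0.99 ± 0.17 (SE, adjusted p = 0.000128). Of the Sparc-related proteoglycans, Spock1 rose from 1943 (1524 to 1991) at E13 to 2877 (2452 to 3970) at E14, by 0.67 ± 0.19 (SE, adjusted p = 0.0154). Spock1 and Spock3 fell from E14 to E16, Spock1 to 1370.3 (385 to 1793) with -1.20 ± 0.20 (SE, adjusted p = 4.32e-05), and Spock3 with a log2 fold change of -0.75 ± 0.22 (SE, adjusted p = 0.0116). Without the left tooth of embryo 3 at E16 these calls and directions were kept.

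Among 17 receptors of these proteins, 3 rose and 2 fell from E13 to E14, and 5 rose and 2 fell from E14 to E16, where 19.7% and 28.1% of all genes passed. In the fit without the left tooth of embryo 3, 3 rose and 3 fell, and 6 rose and 3 fell, against 30.4% and 34.3% of all genes. Itgav, the alpha chain of the integrins that bind periostin and fibronectin, rose from a median of 4482 (3997 to 4808) to 6495 (6323 to 8006) at E14, by 0.61 ± 0.07 (SE, adjusted p = 1.55e-06). Itga3, the alpha chain of a laminin and thrombospondin receptor, rose by 0.50 ± 0.14 (SE, adjusted p = 0.0144). Itga4, which binds an alternatively spliced part of fibronectin, fell from 1037 (842 to 1323) to 713 (652 to 813) and rose again to 1286 (951 to 1469), with -0.60 ± 0.10 (SE, adjusted p = 7.84e-05) and 0.80 ± 0.10 (SE, adjusted p = 7.66e-07). The tenascin receptor chain Itga9 fell from 2207 (1942 to 2573) to 1172 (692 to 1503) in the later step, with a log2 fold change of -0.93 ± 0.12 (SE, adjusted p = 9.97e-07), and Itga8 with a log2 fold change of -0.44 ± 0.08 (SE, adjusted p = 0.000121). Itgb6, the epithelial beta chain that binds fibronectin and tenascin, rose in the later step by 0.85 ± 0.28 (SE, adjusted p = 0.0241). Its counts were low and the teeth overlapped, with a median of 39.8 (27.3 to 67.2) at E14 and 79.5 (50.6 to 113) at E16. Leaving out single teeth, its adjusted p by edgeR reached 0.0492. The receptor phosphatase Ptprz1 fell and then rose, from a median of 2123 (1899.6 to 2295) at E13 to 1607 (1495 to 2162) at E14 and 2908 (2489 to 3789) at E16, with log2 fold changes of -0.29 ± 0.09 (SE, adjusted p = 0.0317) and 0.79 ± 0.09 (SE, adjusted p = 4.88e-07) (edgeR). These receptors kept their calls and directions without the left tooth of embryo 3 at E16. The call of Ptprz1 from E13 to E14 was lost in 7 of 21 fits that left out a single tooth, the left teeth of embryos 3 and 10 and the right tooth of embryo 5 at E13 and the right teeth of embryos 2 and 3 and the left teeth of embryos 6 and 8 at E14, with an adjusted p of up to 0.069.

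Of 19 partners and processing enzymes, 3 rose and 2 fell from E13 to E14, and 2 rose and 2 fell from E14 to E16, where 19.7% and 28.1% of all genes passed. Leaving out the left tooth of embryo 3, 7 rose and 3 fell, and 6 rose and 2 fell, against 30.4% and 34.3% of all genes. Lox, the lysyl oxidase that cross-links collagen, rose by 0.69 ± 0.16 (SE, adjusted p = 0.00273) from E13 to E14, and Ext1, a polymerase of the heparan sulfate chains that syndecans carry, by 0.38 ± 0.06 (SE, adjusted p = 6.99e-05). Ext1 then fell with a log2 fold change of -0.30 ± 0.06 (SE, adjusted p = 0.000525), and -0.25 (adjusted p = 0.000193) without the left tooth of embryo 3. The protease Adamts1 had a log2 fold change of -0.45 ± 0.14 (SE, adjusted p = 0.025) from E13 to E14, and the procollagen protease Tll1 of -0.40 ± 0.12 (SE, adjusted p = 0.0209) and then 0.34 ± 0.12 (SE, adjusted p = 0.036), the latter 0.33 (adjusted p = 0.0371) without that tooth. The collagen gene Col3a1 had 0.50 ± 0.17 (SE, adjusted p = 0.0331) from E14 to E16, and 0.67 (adjusted p = 8.46e-09) without the left tooth of embryo 3, while Loxl2 had -0.45 ± 0.17 (SE, adjusted p = 0.0496) and -0.28 (adjusted p = 0.00445) (edgeR).

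Several of these calls lay close to the threshold. Leaving out single teeth in turn, that of Adamts1 was lost without either tooth of embryo 6 at E14, that of Tll1 from E13 to E14 without the left teeth of embryos 2 or 3 at E13 or embryo 6 at E14, and that of Tll1 from E14 to E16 without 6 teeth, the right tooth of embryo 1 and the left teeth of embryos 6 and 8 at E14 and the left tooth of embryo 5, the left tooth of embryo 8, and the right tooth of embryo 7 at E16. The call of Col3a1 was lost without the right tooth of embryo 2 at E14, the right tooth of embryo 7 at E16, or the left tooth of embryo 8 at E16. That of Loxl2 was kept in 2 of 21 such fits, without the left tooth of embryo 3 or the right tooth of embryo 6 at E16. The highest adjusted p values of edgeR among these fits were 0.0566 for Adamts1, 0.0552 and 0.0666 for Tll1, 0.068 for Col3a1, and 0.0943 for Loxl2.

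Of 15 known inducers and regulators, 3 rose and 3 fell from E13 to E14, and 3 rose and 4 fell from E14 to E16, where 19.7% and 28.1% of all genes passed. Without the left tooth of embryo 3, 5 rose and 3 fell, and 8 rose and 4 fell, against 30.4% and 34.3% of all genes. Tgfb1, whose protein induces Tgfbi, Postn, and Fn1 in many cells, rose from a median of 538 (485 to 643) to 1979 (1773 to 2155) at E14, by 1.84 ± 0.18 (SE, adjusted p = 6.5e-08), and fell to 1123 (306 to 1227) at E16, with a log2 fold change of -0.94 ± 0.18 (SE, adjusted p = 0.000233), and -0.77 (adjusted p = 3.63e-09) without the left tooth of embryo 3. Fgf3, a ligand of the dental mesenchyme and enamel knot, rose from 3.92 (0 to 25.9) to 529.6 (381 to 667), a fitted log2 fold change of 6.45 ± 0.39 (SE, adjusted p = 1.69e-11) that depends on the small counts of E13, and fell to 293 (152 to 305) at E16, with a log2 fold change of -0.94 ± 0.26 (SE, adjusted p = 0.00819). Fgf8, the early epithelial ligand, fell at both steps, from 74.8 (40.0 to 130) to a range of 4.76 to 39.8 at E14 and 0 to 5.42 at E16, with log2 fold changes of -1.97 ± 0.41 (SE, adjusted p = 0.00106) and -3.57 ± 0.56 (SE, adjusted p = 2.88e-05). Prrx1, a mesenchymal homeobox factor, fell at both steps, with log2 fold changes of -0.24 ± 0.07 (SE, adjusted p = 0.0213) and -1.30 ± 0.07 (SE, adjusted p = 2.73e-12), and Twist2 rose by 0.58 ± 0.11 (SE, adjusted p = 0.000423). Twist1 was lower at E14 with a log2 fold change of -0.50 ± 0.16 (SE, adjusted p = 0.0305), and Bmp7 rose at both steps, by 0.55 ± 0.15 (SE, adjusted p = 0.0113) and 0.43 ± 0.15 (SE, adjusted p = 0.0344) (edgeR). The named calls of this list and their directions were kept without the left tooth of embryo 3 at E16. The call of Prrx1 from E13 to E14 was lost without the right tooth of embryo 9 at E13 (adjusted p = 0.0509 by edgeR). The call of Twist1 was lost without the left tooth of embryo 2 at E13 or the right teeth of embryos 3 or 6 at E14, and that of Bmp7 from E14 to E16 without the right teeth of embryos 3 or 5 at E14 or, at E16, the left tooth of embryo 5, either tooth of embryo 6, or the right tooth of embryo 8, with adjusted p values of up to 0.0582 and 0.0642.

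Lastly, each of the 10 genes was set against 11721 protein-coding genes with at least 100 normalized counts on average, and those with the most similar pattern over the 21 teeth were found by the root mean square difference of centered log2 levels. The likeness is a description, and the 21 points share stages and libraries. The left tooth of embryo 3 at E16 is among them, and the likeness is not given without it, so genes can be near each other through this tooth. For Sparc the nearest genes were Myadm (0.155), Col1a1 (0.170), and Anpep (0.216), of which Col1a1, a chain of type I collagen, had a median of 49513 normalized counts at E13, 74282 at E14, and 138126 in 6 teeth at E16, and 24586 in the left tooth of embryo 3. Thbs2 was nearest to Car2 (0.182), Col12a1 (0.203), and Mylk (0.203), Tnc to Bmp6 (0.163), Marcks (0.167), and Grb10 (0.184), and Spon1 to Foxo1 (0.197), Trabd2b (0.218), and Pltp (0.220).

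Postn was nearest to Stag1 (0.106), Wdr75 (0.107), and Appl1 (0.109), which in the left tooth of embryo 3 were, like Postn, above their medians of the other 6 E16 teeth. Thbs1 was nearest to Lamb1 (0.0928), Dyrk2 (0.106), and Ago2 (0.109), Sdc1 to Arf3 (0.0763), Myo1c (0.106), and Esyt1 (0.108), and Fn1 to Gpc4 (0.151), Gaa (0.152), and Nid2 (0.156). Tgfbi was nearest to Mest (0.177) and C1qtnf6 (0.201), and Mgp, with larger differences, to 4930523C07Rik (0.408), Vsir (0.445), and Ptprc (0.458). Among the 10 genes themselves the nearest pair was Thbs1 and Fn1, with a difference of 0.213. Neither passed the test between stages, and both were low in the left tooth of embryo 3, at 0.389 and 0.255 of the median of the other 6 E16 teeth. Mgp was farthest from its nearest member, Thbs2, at 0.583.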

How the data were processed

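Single molar tooth germs of the mouse were sequenced, and the authors deposited counts of reads per gene (FastQC, AfterQC, Trimmomatic, STAR, and HTSeq, on GRCm38 with Ensembl release 90), without normalization, for 52636 genes and 21 libraries. For 20 libraries of E13, E15, and E16 the authors deposited a table of estimated counts from salmon, with 14185 genes. Stage, embryo, and side came from the labels. The HTSeq column of 1 left E13 tooth gives its embryo as X, which was read as the Roman numeral for embryo 10. An E15 sample with no matching column was not analysed here.

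Levels are counts divided by DESeq2 (version 1.42.0) size factors, estimated separately in each table. For the comparison of stages, edgeR (4.0.16, under R 4.3.3) was fitted once per table with its quasi-likelihood method, with a factor for stage, TMM normalization, the filterByExpr filter, and Benjamini-Hochberg adjustment over all genes (19101 and 13447). The SE given with an edgeR fold change was derived from its test, as the size of the log2 fold change over the square root of the F statistic. Teeth varied by 21.2% (edgeR, coefficient of variation beyond counting). Teeth of 1 embryo are not independent, so p values measure the spread between these teeth only. No tooth was found to be a duplicate of another (lowest chi-square over its degrees of freedom 7.68). Ratios in the text are of the counts as they stand, and those plotted and tested, by exact permutation over 3432 splits, had a pseudocount of 1 added to each count. Gene positions, exon lengths, and overlaps came from the GENCODE annotation of GRCm38. A gene with a pattern like that of Tgfbi is not reported here. The edgeR steps were tested on simulated counts in which teeth were independent, every gene had the same spread beyond counting, and no tooth stood apart. That test does not cover teeth that share an embryo or a tooth like the left tooth of embryo 3 at E16. Python (3.11.15) was used with scipy (1.17.1), pandas (2.3.3), numpy (2.4.6), and, for plots, matplotlib (3.10.9).

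The 10 genes, the lists, and the tests were chosen with earlier results of these data known. Besides the 10 genes, the text names from each list up to 2 genes that rose and 2 that fell with the largest log2 fold change at each step, with the other step where the gene passed there too, and the 3 nearest genes by pattern. The alternatives were DESeq2 size factors or the DESeq2 test, no filter, only the 2 stages compared, side or embryo number as a factor, summed (for ratios, averaged) teeth of an embryo, the salmon table, another pseudocount, and each tooth left out.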

Additional observations from a re-analysis of the deposited data

Results flagged for a closer look

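Of 40 groups of teeth examined, the 10 genes at E13, E14, E15, and E16, 7 held a tooth whose gap to the nearest of the others was large for the range of its group (Dixon's test), where chance gives about 1 in 20. All 7 are the left tooth of embryo 3 at E16, so that they are not independent of each other. Postn was at 40441 against 21496 to 28441 normalized counts in the other 6 teeth. Thbs1 was at 1685 against 4168 to 4552, Sparc at 3446 against 14594 to 18957, and Tgfbi at 584.3 against 1972 to 2572. Spon1 was at 1193 against 2423 to 3237, Fn1 at 7211 against 25902 to 37497, and Sdc1 at 1626 against 3438 to 4526.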

How the results depend on the processing

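Of 1590 log2 fold changes of the 10 genes under other settings, 1545 kept their direction and side of the threshold, 3 lost and 19 gained a call, and 23 reversed. Leaving out the left tooth of embryo 3 at E16 changed the number of the 10 genes called from 2 to 7 (E14 to E16), 5 to 8 (E13 to E16), 1 to 3 (unequal steps), and 0 to 4 (E15 to E16). Over all teeth left out in turn the counts ranged from 2 to 4 (E13 to E14), 2 to 7 (E14 to E16), 5 to 8 (E13 to E16), 1 to 3 (unequal steps), and 0 to 4 (E15 to E16), and the Postn to Tgfbi differences from -0.85 to -0.40 (E14 to E16) and -0.71 to -0.26 (E13 to E16), the lowest being without that tooth. A fit of E13 and E14 alone called 5 of the 10, adding Tnc and Sdc1 (0.19, adjusted p = 0.0422, edgeR), and the DESeq2 test called 1 from E15 to E16, Spon1 (0.44, adjusted p = 0.0445). In the main fit the 3 stages share 1 estimate of the spread. From E13 to E14 the log2 fold change of Tnc was -0.34 ± 0.16 (SE) with all teeth. It was -0.35 ± 0.11 (SE) without the left tooth of embryo 3 at E16, and -0.34 in the fit of E13 and E14 alone. That of Sdc1 was 0.19 both with all teeth and in the fit of these 2 stages. The cause of the changed calls was not tested.

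Embryo numbers do not pair teeth of different stages: of 11 pairs with the same number, 2 had deviations correlated above 0.1 (range -0.0883 to 0.211). With the number as a replicate block, calls over all genes from E13 to E14 fell from 2150.0 higher and 1617 lower to 1093 and 584. Calls among the further matricellular and related genes fell from 12 to 7, and Sparc lost its call (0.62, adjusted p = 0.233, edgeR). A fit of the 2 stages alone gave 3128 higher and 2513 lower.

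No reversed value had passed the test. With the replicate block Spon1 was at -0.0578 and Fn1 at -0.003266 from E13 to E14, and with side as a factor Thbs1 was at 0.04853 for unequal steps. Leaving out teeth, Thbs1 ranged from -0.08094 to 0.087 (E14 to E16), -0.1327 to 0.04467 (E13 to E16), and -0.05823 to 0.1293 (unequal steps), Fn1 from -0.1881 to 0.08316, -0.1203 to 0.1507, and -0.256 to 0.01559 for the same, Sdc1 from -0.2081 to 0.01207 (unequal steps) and -0.05086 to 0.1899 (E13 to E15), and Thbs2 from -0.09113 to 0.07189 (E15 to E16). Depth limits Mgp most, with as few as 12 reads in a tooth.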
